A study of Homo sapiens with 6 samples.

Results

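The tripartite motif (TRIM) genes were examined in SKOV3 cells before and after 2'3'-cGAMP. A gene was taken when its symbol was TRIM followed by a number and its mean count over the 6 libraries was at least 10, a rule that uses levels in treated and control libraries but no fold change. Of 66 such symbols in the table, 47 passed, 10 had a lower mean that was above 0, and 9 had no count in any library. In the whole table, 15126 of 60498 genes reached the same mean. TRIM17 and TRIM74 lay just inside the limit, with mean counts of 10.3 and 10.8, and TRIM10 and TRIM9 just outside it, with 9.5 and 6.17.

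Most TRIM proteins have an amino-terminal RING finger, which makes most of these E3 ubiquitin ligases, followed by B-box zinc fingers and a coiled coil. The carboxy-terminal part differs between them and sets their classes, of which the class ending in a PRY-SPRY domain is the largest. Several members are induced by interferon and either restrict viruses directly or tune the sensing of nucleic acids and the signalling that follows. STING1 is the receptor that binds cGAMP, the second messenger made by the DNA sensor cGAS, and it signals through the kinase TBK1 to IRF3 and the type I interferon genes.

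SKOV3 is an established human ovarian cancer cell line whose cells carry a WT and a HAQ haplotype of STING1 (WT/HAQ). The other lines, WT/- and HAQ/-, came out of CRISPR/Cas9 editing of STING1 in this parent with lentivirally delivered guides, and each has 1 remaining haplotype. Each line gave 1 control library and 1 library of cells that took up 10 μg/mL of 2'3'-cGAMP through digitonin-permeabilized membranes over 30 min and then rested for 4 h. How the control cells were handled is not given in the sources used here. As each edited genotype is represented by 1 line, haplotype and clone cannot be told apart. The tests rest on differences between lines, not between repeat cultures, and their variance is moderated over all genes.

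The 6 libraries held 12444791 to 17608427 counts, with the lowest totals in the cGAMP libraries of WT/- and HAQ/-. All 6 epithelial markers (KRT8, KRT18, KRT19, EPCAM, ERBB2 and PAX8) were expressed, with mean counts from 557 for EPCAM to 62650 for ERBB2. Untreated, 2 of them (KRT19 and EPCAM) were at least 1.5-fold lower in WT/- than in WT/HAQ and 3 (with KRT8) in HAQ/-, most of all KRT19, with normalized counts of 5630, 364 and 414 in WT/HAQ, WT/- and HAQ/-. After cGAMP 5, 4 and 5 of the 6 were below their control in these lines, and 2 (PAX8 and KRT19), 1 (PAX8) and 0 of them by 1.5-fold or more. The edgeR test over the lines called none of the 6, with an unadjusted p under 0.05 for 2 and the lowest adjusted p for PAX8 (0.082). What part these have in the TRIM values was not tested. The leukocyte markers PTPRC, CD3E and CD14 had at most 4 counts in any library, the endothelial marker CDH5 at most 10, and PECAM1 a mean of 12.5. STING1, the edited gene, had a normalized count of 669 in the control library of WT/HAQ and of 353 and 213 in those of WT/- and HAQ/-. Normalized counts are counts brought to a common library size by edgeR's TMM scaling.

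cGAMP was followed by a rise of 10 TRIM genes in all 3 lines: TRIM69, TRIM22, TRIM21, TRIM34, TRIM26, TRIM14, TRIM38, TRIM5, TRIM56 and TRIM25. The increases, averaged over the lines, ran from 0.79 for TRIM25 to 3.01 for TRIM69 on the log2 scale. These 10 genes are 21.3% of the members, while 2.27% of all genes tested were called higher by the same rule, an adjusted p under 0.05 in edgeR's quasi-likelihood test with the line as a block. No member was called lower, against 0.959% of all genes. At an unadjusted p under 0.05 the test gave 15 members higher and 13 lower, beside 11.6% and 13.7% of all genes. DESeq2 called 10 higher and 3 lower (TRIM16, TRIM33 and TRIM47), beside 5.1% and 3.85% of all genes. All 10 calls were lost without the WT/- line, a fit in which edgeR called 0 genes of the whole table and 15 members had an unadjusted p under 0.05. Without WT/HAQ 7 of the 10 remained (not TRIM26, TRIM34 and TRIM56), without HAQ/- all 10, and without the line block 3 (TRIM14, TRIM22 and TRIM69). In these fits 0.899%, 8.48% and 0.383% of all genes were called higher.

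**Figure D1:**
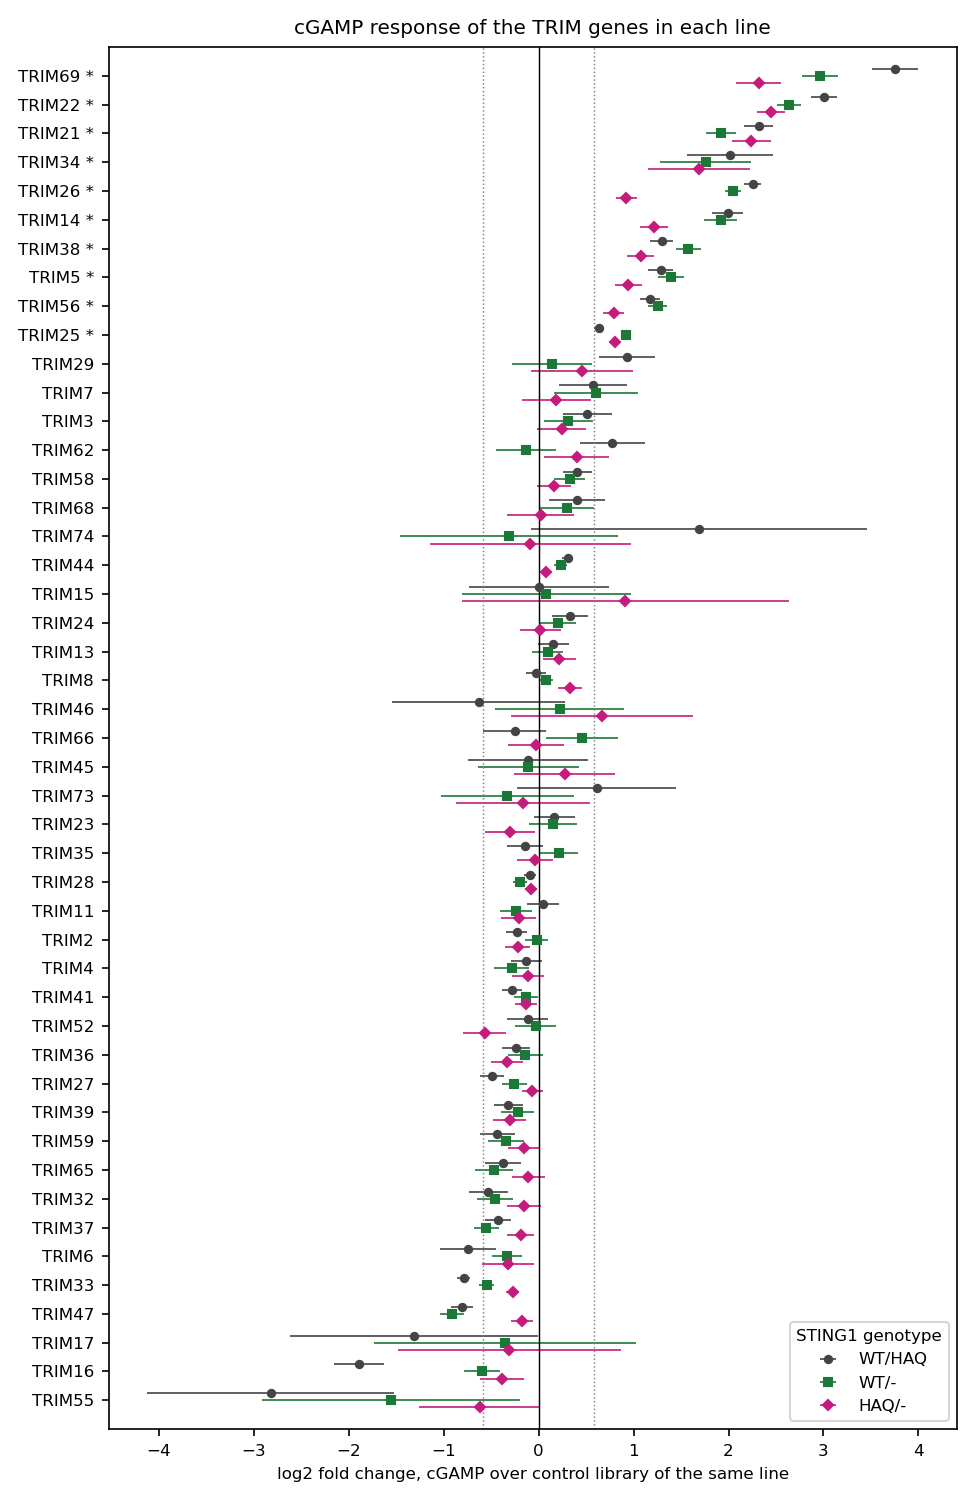
Log2 fold change of the cGAMP over the control library of the same line for each of the 47 TRIM genes, ordered by the average over the lines. Circles are WT/HAQ, squares WT/- and diamonds HAQ/-. Bars are 95% counting intervals of single libraries, the dotted lines mark 1.5-fold, and stars mark the 10 genes with an adjusted p under 0.05 in edgeR. The 10 starred genes lie to the right of the upper dotted line in every line, from 0.64 to 3.76. Of the other genes, TRIM55 lies past the lower dotted line in every line, and TRIM16 (-1.90), TRIM17 (-1.31) and TRIM74 (1.69) lie far from 0 in WT/HAQ.

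The largest increases were those of TRIM69 and TRIM22. TRIM69, which restricts vesicular stomatitis virus, lies on chromosome 15 and is spanned from 44728988 to 44767829 in GRCh38. Its normalized count went from 127 to 1719 in WT/HAQ, from 235 to 1835 in WT/- and from 152 to 756 in HAQ/-. All cGAMP libraries stood above all control libraries, and HAQ/- had the lowest treated level. The average log2 fold change was 3.01 ± 0.27, with an adjusted p of 0.0126 by edgeR's quasi-likelihood test and Benjamini-Hochberg adjustment. Here and below, ± gives the standard error from edgeR's fit, in which variance is shared over all genes tested. It is not the spread of the line values, which for TRIM69 were 3.76, 2.96 and 2.32 in WT/HAQ, WT/- and HAQ/-. TRIM22, an interferon-induced inhibitor of retroviruses and influenza virus, went from 439 to 3527, from 587 to 3646 and from 410 to 2237 in WT/HAQ, WT/- and HAQ/-. Treated and control libraries did not overlap, and both lines with a WT allele ended at nearly the same level. Its log2 fold change was 2.70 ± 0.13 with an edgeR adjusted p of 0.0034.

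TRIM5, TRIM6, TRIM22 and TRIM34 are neighbours on chromosome 11, and 3 of the 4 rose. From the telomere inwards, TRIM6 is spanned from 5596109 to 5612958, TRIM34 from 5619764 to 5644398, TRIM5 from 5663195 to 5938619 and TRIM22 from 5689610 to 5737089, so that TRIM22 lies inside the span of TRIM5 on the opposite strand. TRIM5 encodes a restriction factor that recognises retroviral capsids. Its normalized count went from 578 to 1410 in WT/HAQ, from 636 to 1674 in WT/- and from 566 to 1088 in HAQ/-. The control levels were close in the 3 lines, and every treated library was above every control. The log2 fold change was 1.21 ± 0.11 (edgeR adjusted p = 0.0119). TRIM34, a close relative of TRIM5 that can act with it against capsids, had the lowest mean normalized count per kilobase of exon (34.9) of the genes that rose. Its normalized count went from 43.3 to 175 in WT/HAQ, from 45.7 to 155 in WT/- and from 33.2 to 107 in HAQ/-, a log2 fold change of 1.83 ± 0.16 (edgeR adjusted p = 0.0119).

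TRIM6, which makes unanchored ubiquitin chains that activate the kinase IKKε in interferon signalling, did not rise with its neighbours. Its normalized count was 229 in the control and 137 in the cGAMP library of WT/HAQ, 804 and 637 in WT/-, and 236 and 188 in HAQ/-. The treated value was the lower of each pair, while the groups overlapped because of the higher level of the WT/- line. The log2 fold change was -0.45 ± 0.12, and the edgeR adjusted p of 0.0953 missed the threshold, with 0.0401 to 0.936 over 8 alternative settings. TRIM6 shares exon bases with the readthrough gene TRIM6-TRIM34, as does TRIM34, so reads between them may have been split by the counting. TRIM3, TRIM21 and TRIM68 lie on the same chromosome arm at a greater distance. TRIM68 had log2 fold changes of 0.41, 0.30 and 0.02 in WT/HAQ, WT/- and HAQ/-, and TRIM3 had 0.51, 0.31 and 0.24. Neither TRIM68 nor TRIM3 was called.

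TRIM21, a cytosolic receptor for antibody-coated pathogens, was the gene of those that rose with the most similar response in WT/HAQ and HAQ/-. Its normalized count went from 362 to 1809 in WT/HAQ, from 412 to 1555 in WT/- and from 212 to 1000 in HAQ/-. HAQ/- started lowest and ended lowest, with log2 fold changes of 2.32, 1.92 and 2.24 in the 3 lines in this order. The average was 2.16 ± 0.10 (edgeR adjusted p = 0.00343). TRIM14 and TRIM25 are, with TRIM21, the members of the gene signature that the study uses for interferon-stimulated genes. TRIM14, which lacks a RING finger and acts as an adaptor at MAVS and as a stabiliser of cGAS, had nearly equal control levels of 353 and 352 in WT/HAQ and WT/- and 467 in HAQ/-. After cGAMP HAQ/- was no longer the highest but the lowest, with 1084 against 1401 and 1329. Its log2 fold change was 1.71 ± 0.17 (edgeR adjusted p = 0.0152). TRIM25, the ligase known for its action on RIG-I and its cofactor ZC3HAV1, had the smallest increase of the 10. It went from 4810 to 7483 in WT/HAQ, from 5236 to 9908 in WT/- and from 4174 to 7265 in HAQ/-, a log2 fold change of 0.79 ± 0.08 (edgeR adjusted p = 0.0157).

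The remaining genes that rose were TRIM26, TRIM38 and TRIM56. TRIM26 and TRIM38, which both modify interferon and NF-κB signalling, lie with TRIM15, TRIM27 and TRIM39 in the group near the MHC on chromosome 6, in which 2 of the 5 analysed genes rose. TRIM26 went from 1150 to 5481 in WT/HAQ, from 1320 to 5461 in WT/- and from 958 to 1816 in HAQ/-. Both lines with a WT allele reached the same level, and the treated level of HAQ/- was far below both. The log2 fold change over the lines was 1.75 ± 0.27, with an edgeR adjusted p of 0.0444 that ran from 3.07e-09 to 0.362 over 8 alternatives and passed in 4 of them. TRIM38 went from 679 to 1668, from 647 to 1927 and from 572 to 1204 in WT/HAQ, WT/- and HAQ/- (log2 fold change 1.32 ± 0.11, edgeR adjusted p = 0.0104). TRIM56, a ligase with antiviral activity that has been linked to STING1 and cGAS, went from 981 to 2210, from 1248 to 2977 and from 941 to 1629 (1.07 ± 0.11, edgeR adjusted p = 0.0159). For both genes the WT/- line had the highest and HAQ/- the lowest treated level.

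**Figure D2:**
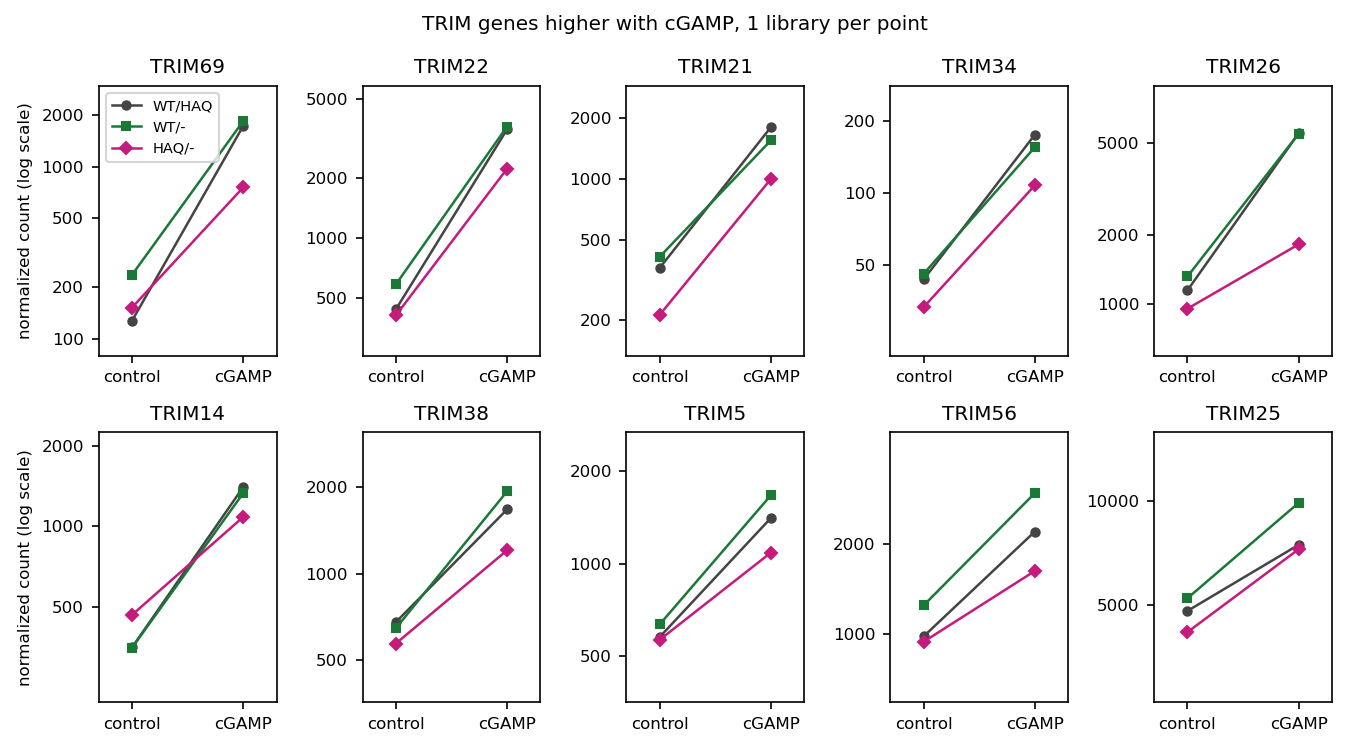
Normalized counts of the 10 TRIM genes that rose, in the control and the cGAMP library of each line, on log axes that differ between panels. Each point is 1 library, and lines join the 2 libraries of a line. HAQ/- (diamonds) has the lowest treated level in each panel, for example 1816 against 5481 and 5461 for TRIM26.

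Each member was put in 1 structural class, and those without a RING finger were not classed by their carboxy-terminal part. Of the 23 analysed genes in the PRY-SPRY class 8 rose. Of the 4 in the class without a RING finger 1 rose (TRIM14), and of the 5 with no further domain after the coiled coil 1 (TRIM56). The edgeR test with all 6 libraries called no gene in the PHD-bromodomain class (4 analysed), the COS box class (3), the NHL repeat class (3), the transmembrane class (2), or among the single members with a MATH, an ARF or only a filamin domain. DESeq2 called TRIM33 of the PHD-bromodomain class lower, as edgeR did without HAQ/-, where TRIM55 (COS box), TRIM32 (NHL repeats) and TRIM37 (MATH) were also called lower. Of the 11 TRIM genes listed for interferon or antiviral roles, 10 rose, TRIM6 being the exception, and 0 of the 36 other members did. That list was drawn up with results of these data known, so its count describes these genes and is no separate evidence.

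The share of these 10 genes in all TRIM counts is given as a description, since genes chosen for a rise must gain share in the same libraries. They held 25.53% of the members' counts in the control library of WT/HAQ and 52.25% in its cGAMP library, 25.99% and 52.61% in WT/-, and 24.97% and 43.1% in HAQ/-. The members together made up 0.24% of all counts in WT/HAQ before and 0.324% after cGAMP, 0.259% and 0.349% in WT/-, and 0.229% and 0.282% in HAQ/-.

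Promoter sequence was searched on both strands for GAAA, any 2 bases and a further GAAA, the core of the interferon-stimulated response element, which is bound by interferon regulatory factors and by the ISGF3 complex. The RefSeq windows run from 250 bases before to 50 after a start site in GRCh38.p14, and 35 of the 47 members had at least 1. The core was present for 9 of these 35 members (25.7%) and for 4.38% of the 27305 genes of the table that had a window. Of the 10374 genes with a window and a mean count of at least 10, 4.1% had it. Among the genes that rose, 9 had a window and 6 of them the core (TRIM5, TRIM14, TRIM21, TRIM26, TRIM34 and TRIM69), while TRIM25, TRIM38 and TRIM56 did not have it in these windows. Of the 26 other members with a window, 3 had it (TRIM2, TRIM16 and TRIM44). The letters are a description of the sequence, and binding was not measured. The matches of the 6 genes are shown on the gene's strand, with the core, or its reverse complement (TTTC, 2 bases, TTTC), in capitals.
TRIM5: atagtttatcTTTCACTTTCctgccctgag
TRIM14: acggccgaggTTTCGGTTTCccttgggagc
TRIM21: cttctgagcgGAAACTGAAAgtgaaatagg
TRIM26: tcccgcctgaTTTCAGTTTCcatttcgctg
TRIM34: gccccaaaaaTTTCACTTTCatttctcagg
TRIM69: ctaatgagggTTTCTCTTTCtcttaagcaa

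TRIM21 and TRIM26 each had a second match that overlaps the one shown. The matches began 26 and 27 bases before the start site in TRIM14 and TRIM5, 62 in TRIM69, 90 in TRIM34 and 194 in TRIM26, and at base 18 after it in TRIM21. TRIM26 and TRIM69 are the genes whose responses were furthest apart between WT/HAQ and HAQ/- among those that rose, and the 250 bases before their start sites are given for this reason, with the matches in capitals. That of TRIM26 is chr6:30213407-30213656 on the minus strand and that of TRIM69 chr15:44736278-44736527 on the plus strand. The RefSeq start site used for TRIM69 lies inside the gene span given above, which begins at 44728988.
TRIM26: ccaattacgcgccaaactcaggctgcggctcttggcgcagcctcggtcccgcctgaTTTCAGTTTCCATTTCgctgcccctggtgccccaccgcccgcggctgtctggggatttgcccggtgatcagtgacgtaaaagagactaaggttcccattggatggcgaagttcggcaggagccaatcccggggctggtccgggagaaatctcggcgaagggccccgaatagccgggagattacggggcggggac
TRIM69: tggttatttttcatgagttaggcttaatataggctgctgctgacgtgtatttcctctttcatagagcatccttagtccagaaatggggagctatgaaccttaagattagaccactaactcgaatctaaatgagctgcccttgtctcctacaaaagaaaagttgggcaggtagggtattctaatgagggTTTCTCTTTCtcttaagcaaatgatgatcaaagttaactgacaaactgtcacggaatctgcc

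The response of TRIM26 was smaller in HAQ/- than in the lines with a WT allele. Its log2 fold changes were 2.25, 2.05 and 0.92 in WT/HAQ, WT/- and HAQ/-, a difference of -1.23 ± 0.17 between HAQ/- and the average of the other lines (edgeR quasi-likelihood test of the interaction, adjusted p = 0.0164, range 0.000293 to 0.045 over 4 alternatives). It was the single member called, and over all genes this difference was called below 0 for 1.01% and above 0 for 0.172%. A difference above 0 can also be a weaker decrease in HAQ/-. For a single gene, the spread open to this test is the disagreement between WT/HAQ and WT/-, with 1 residual degree of freedom. edgeR moderates it with the variance of all genes tested, so the p-value rests in part on other genes, and HAQ/- is 1 line.

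Another 5 members had an unadjusted p under 0.05 in this test without passing the adjusted threshold, 4 of them with a difference below 0. At this level 5.5% of all genes had a difference below 0 and 3.89% one above 0. TRIM69 had log2 fold changes of 3.76, 2.96 and 2.32 in WT/HAQ, WT/- and HAQ/- (difference -1.02, edgeR adjusted p = 0.253, range 0.0584 to 0.756 over 4 alternatives). For TRIM14 they were 1.99, 1.92 and 1.22, with a difference of -0.74 and an edgeR adjusted p of 0.129, which ran from 0.0498, where genes with a mean count of 1 or more entered, to 1 over 4 alternatives. TRIM47, a PRY-SPRY ligase, had a difference above 0, with log2 fold changes of -0.81, -0.91 and -0.17 (difference 0.69, edgeR adjusted p = 0.131). TRIM5 and TRIM56 had differences of -0.40 and -0.42.

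Pairs of lines were also set side by side, with no test, since each line has 1 library per treatment and counting intervals leave out the spread between cultures. Between WT/- and HAQ/-, the response was the larger one in WT/- for 9 of the 10 genes that rose, with TRIM21 as the exception, and the 95% counting interval of the difference lay above 0 for 7 of them and below 0 for TRIM21. It lay above 0 for 191 of 331 genes called higher in the whole table. WT/HAQ exceeded HAQ/- for 9 of the 10 as well, with TRIM25 as the exception. Among all genes called higher in the whole table, these 10 included, WT/- exceeded HAQ/- for 288 of 331 genes and WT/HAQ exceeded HAQ/- for 310 of 332. Between the lines with a WT allele, WT/HAQ exceeded WT/- for 6 of the 10 and for 225 of 343 genes called higher. The interval of that difference lay above 0 for 4 of the 10 and below 0 for 2, and for 114 and 37 of the 343. Over all members WT/- exceeded HAQ/- for 23 of 47, beside 51.8% of all genes, and WT/HAQ exceeded HAQ/- for 23 of 47, beside 48.8%. The largest excess of WT/- over HAQ/- among members with a mean count of at least 50 was that of TRIM26, at 1.13, followed by TRIM14 at 0.70 and TRIM69 at 0.65. At the other end were TRIM47 at -0.74, TRIM62 at -0.53 and TRIM45 at -0.38.

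**Figure D3:**
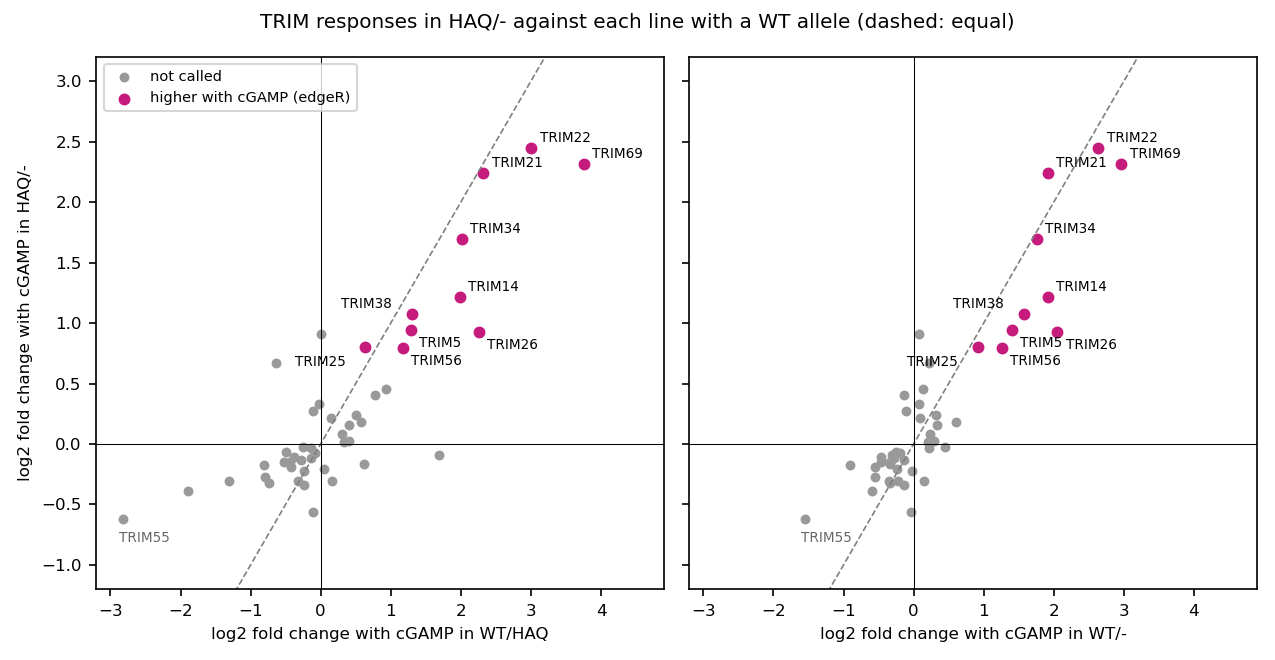
Log2 fold change with cGAMP in HAQ/- against that in WT/HAQ (left) and in WT/- (right), 1 point per TRIM gene. Coloured points are the 10 genes that rose by edgeR, and the dashed line marks equal responses. TRIM26 lies furthest below the line on the right, at 2.05 and 0.92, and TRIM21 (1.92 and 2.24) lies above it.

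At 1.5-fold or more, a threshold with no test, 14 members were higher and 7 lower with cGAMP in WT/HAQ, where 12.9% of all genes were higher and 12.3% lower. In WT/- 11 were higher and 3 lower, against 11.9% and 8.79%, and in HAQ/- 12 were higher and 1 lower, against 6.77% and 5.79%. The 10 genes that rose by edgeR were past 1.5-fold higher in all 3 lines, which 3.11% of all genes were, and no other member was. The median log2 fold change of the 47 members was 0.01, 0.08 and -0.03 in WT/HAQ, WT/- and HAQ/-, near the medians of all genes, which were -0.01, -0.0001 and -0.01. For the 37 members that were not called the medians were -0.13, -0.13 and -0.11.

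The 7 other instances of a 1.5-fold higher level were each in 1 line. TRIM29, a RING-less member of epithelia, had log2 fold changes of 0.93, 0.14 and 0.46 in WT/HAQ, WT/- and HAQ/-, from counts of 142, 104 and 53 in the control libraries. TRIM62 had 0.78, -0.13 and 0.40, TRIM73 0.61, -0.33 and -0.17, and TRIM7 0.57, 0.61 and 0.19. TRIM74 had 3 counts in the control and 9 in the cGAMP library of WT/HAQ, TRIM15 had 4 and 6 in HAQ/-, and TRIM46 had 15 and 19. In these lines the counting intervals of TRIM73, TRIM74, TRIM15 and TRIM46 included 0.

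Members past 1.5-fold lower numbered 7, 3 and 1 in WT/HAQ, WT/- and HAQ/-, the order that the shares of all genes (12.3%, 8.79% and 5.79%) also had. TRIM55, a muscle ligase of the COS box class that is scarcely expressed here, was the 1 member past 1.5-fold lower in all 3 lines, as 1.34% of all genes were. It had 38 counts in the control and 5 in the cGAMP library of WT/HAQ, 21 and 5 in WT/-, and 56 and 29 in HAQ/-. The log2 fold changes were -2.82, -1.55 and -0.62, and the edgeR adjusted p was 0.144. In HAQ/- the counting interval of TRIM55 included 0 (-1.26 to 0.02). TRIM16, a RING-less regulator of autophagy and keratinocyte growth, went from a normalized count of 509 to 137 in WT/HAQ, from 664 to 439 in WT/- and from 336 to 257 in HAQ/- (log2 fold change -0.93 ± 0.30, edgeR adjusted p = 0.14). TRIM33, a chromatin reader that acts on SMAD4, went from 3925 to 2268, from 3646 to 2495 and from 3493 to 2886. Treated and control libraries did not overlap for it, and the size of the drop was ordered WT/HAQ, WT/- and HAQ/-. Its log2 fold change of -0.54 ± 0.11 had an edgeR adjusted p of 0.0724. TRIM37 (-0.39), TRIM39 (-0.28) and TRIM47 (-0.63) likewise had average log2 fold changes below 0 with edgeR adjusted p values of 0.0838, 0.0927 and 0.0934. Without HAQ/- edgeR called 9 members lower: TRIM6, TRIM16, TRIM27, TRIM32, TRIM33, TRIM37, TRIM47, TRIM55 and TRIM65. The same fit called 8.64% of all genes lower.

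Per kilobase of exon, the mean normalized count over the 3 control libraries spanned from 3.44 for TRIM17 to 900.3 for TRIM28, the co-repressor KAP1 of KRAB zinc finger proteins. TRIM28 had log2 fold changes of -0.09, -0.20 and -0.08 in WT/HAQ, WT/- and HAQ/-. Of the members that took the most reads in the other classes, TRIM37 had log2 fold changes of -0.43, -0.55 and -0.19. TRIM44, a regulator of ubiquitination, had 0.30, 0.23 and 0.08. TRIM2, an NHL repeat ligase of neurons, had -0.23, -0.02 and -0.22, and TRIM36, which binds microtubules, had -0.24, -0.14 and -0.34. TRIM13, anchored in the endoplasmic reticulum, had 0.15, 0.10 and 0.22. TRIM23, which carries an ARF GTPase domain, had 0.17, 0.15 and -0.30. TRIM45, with its filamin domain, had -0.11, -0.11 and 0.28. For TRIM2, TRIM13, TRIM23, TRIM28, TRIM36, TRIM44 and TRIM45 the edgeR adjusted p values were 0.136 or higher.

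The untreated clones also differed in TRIM levels from the parent. Against the WT/HAQ control library, 8 members were at least 1.5-fold higher and 1 lower in WT/-, where 13.0% and 9.9% of all genes were, and 2 were higher and 6 lower in HAQ/-, against 7.4% and 8.64%. Both comparisons use the same WT/HAQ library and have no test. TRIM6 had 3.51 times the WT/HAQ level in WT/- and 1.03 times in HAQ/-. TRIM8, a ligase that acts on TAK1 and STAT signalling, had normalized counts of 1425, 3284 and 865 in WT/HAQ, WT/- and HAQ/-, so that the clones lay on either side of the parent. With cGAMP its log2 fold changes were -0.03, 0.08 and 0.33. Of the 10 genes that rose with cGAMP, TRIM69 was 1.85 times as high in untreated WT/- as in WT/HAQ, TRIM21 was 0.58 times as high in untreated HAQ/-, and the other 8 were within 1.5-fold in both clones. TRIM73 and TRIM74, near-identical copies on chromosome 7 whose counts were fractional, had 45 and 16 counts in WT/- against 19 and 3 in WT/HAQ.

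**Figure D4:**
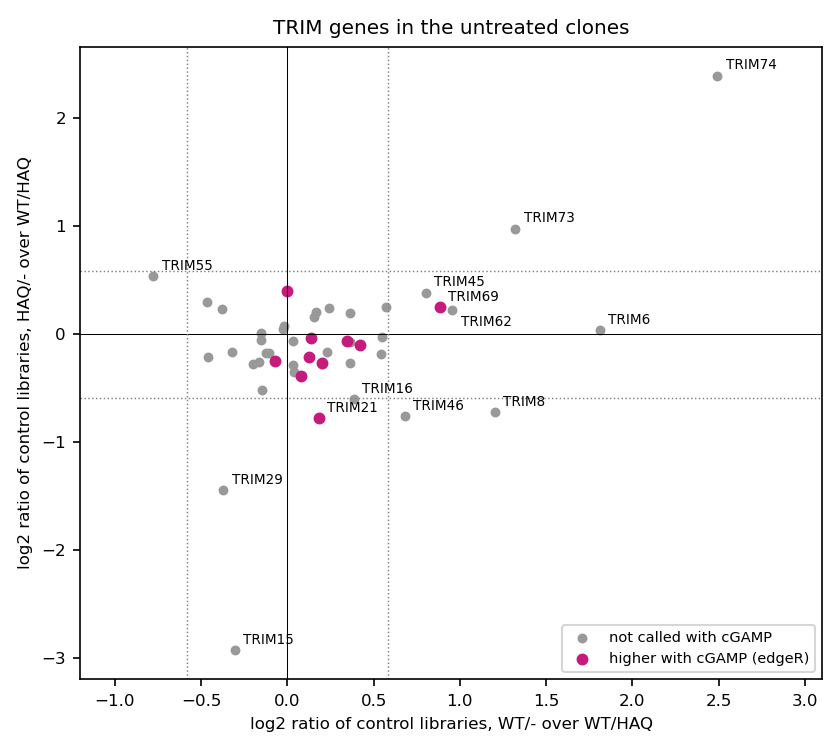
Log2 ratio of the control libraries, WT/- over WT/HAQ on the horizontal and HAQ/- over WT/HAQ on the vertical axis, 1 point per TRIM gene. Dotted lines mark 1.5-fold, and genes past it in either clone are named. TRIM74, TRIM6, TRIM73 and TRIM8 lie to the right, at ratios of 5.63, 3.51, 2.5 and 2.3 in WT/-, and TRIM15 (4 counts in HAQ/-) at the bottom.

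Of 6 analysed genes for family proteins that go by other names, 2 were called higher and 1 lower. PML rose with log2 fold changes of 1.40, 0.82 and 1.15 in WT/HAQ, WT/- and HAQ/- (edgeR adjusted p = 0.0178), and MEFV, the pyrin gene, with 1.73, 1.11 and 0.66 (edgeR adjusted p = 0.0484). MID1, a microtubule-bound ligase, fell with -0.55, -0.44 and -0.49 (edgeR adjusted p = 0.0444). MID2, TRIM16L and TRIML2 were not called, and TRIML1 was under the mean count of 10. For TRIML2 the difference between HAQ/- and the other lines was called (edgeR interaction test, adjusted p = 0.0274). It had 69 counts before and 5 after cGAMP in WT/HAQ, 100 and 4 in WT/-, and 53 and 45 in HAQ/-.

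Of 12 genes for described partners or targets of TRIM proteins in nucleic acid sensing, 11 were analysed, 4 rose and 1 fell. DDX58, which encodes the TRIM25 target RIG-I, rose by 5.19 on the log2 scale and ZC3HAV1, the cofactor of TRIM25, by 5.08 (edgeR adjusted p = 0.0034 and 0.00667). The transcription factor gene IRF7 rose by 2.505 and STING1 itself by 1.01 (edgeR adjusted p = 0.00698 and 0.0447). IRF3 fell by 0.49 (edgeR adjusted p = 0.0458). MAVS, TBK1, IKBKG, TAB2, VCP and PPIA were not called. ZC3HAV1 was the one of the 11 with a called difference between lines, with log2 fold changes of 5.61, 5.45 and 4.15 in WT/HAQ, WT/- and HAQ/- (edgeR interaction test, adjusted p = 0.00615).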

How the data were processed

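RNA-seq libraries (Illumina mRNA TruSeq, NovaSeq) of SKOV3 lines with WT/HAQ, WT/- or HAQ/- STING1, 1 control and 1 cGAMP library per line, were analysed. The authors deposited expected counts per gene, which are estimated counts without normalization. The submitters' processing notes name STAR, RSEM, GRCh38 and hg38, and versions, annotation and strand setting are not given in the sources used here. All 6 columns were matched to samples by their labels. Values were rounded to whole counts, giving totals of 12444791 to 17608427. In at least 1 library, 14 members had a value that was not exactly whole.

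The 15126 genes averaging 10 counts or more were scaled by TMM (edgeR 4.0.16, R 4.3.3) and tested with edgeR's quasi-likelihood F test and Benjamini-Hochberg adjustment over all of them, with the line as a block (2 residual degrees of freedom) or with an added term for the cGAMP response of HAQ/- (1). For single lines the cGAMP library was divided by the control library, with counts under 3 set to 3 and no p-value. Intervals are Wilson intervals at 95% and cover counting error only. DESeq2 1.42.0 was an alternative. Folds, intervals and plots were made in Python 3.11.15 (numpy 2.4.6, pandas 2.3.3, matplotlib 3.10.9). The steps were tested on simulated data. Gene spans and exons are from GENCODE release 44, and promoters from RefSeq.

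Genes named with full values are those with an adjusted p under 0.05 in either test, those past 1.5-fold in 1 direction in all 3 lines, the listed interferon or antiviral TRIM genes, the 3 whose response in WT/- most exceeded, and the 3 whose response fell furthest short of, that in HAQ/-, the most abundant of each structural class and those next to the count limit. The members and lists were chosen with earlier results of these data known. TRIM10, TRIM9 and the other genes under the limit were not tested.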

Additional observations from a re-analysis of the deposited data

Results flagged for a closer look

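The cGAMP response of TRIM26 differed between lines by a test of the difference itself, at -1.23 on the log2 scale for HAQ/- minus the average of WT/HAQ and WT/- (edgeR interaction test, adjusted p = 0.0164). Its counts in HAQ/- were 1098 in the control and 1659 in the cGAMP library, against 1301 and 5767 in WT/HAQ and 1414 and 4089 in WT/-.

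TRIM46 was past 1.5-fold lower in WT/HAQ and past 1.5-fold higher in HAQ/-, with log2 fold changes of -0.63, 0.22 and 0.67 in WT/HAQ, WT/- and HAQ/-. The difference between those 2 lines was not tested. It rests on 15 to 38 counts per library, and the edgeR interaction test for the gene gave an adjusted p of 0.919.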

How the results depend on the processing

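No called result changed direction under the alternatives run. The median log2 fold change of the members, near 0, changed sign in WT/HAQ from 0.0052 to -0.0248 with total counts only and -0.0116 with a floor of 10 counts, and in HAQ/- from -0.0282 to 0.0119 after thinning and 0.0221 with a mean count of at least 50. Among 106 recomputed counts and medians, 24 were counts that left the range within 1.5 times the reported one, and 24 of 330 recomputed values of named genes changed their side of a threshold or moved beyond their counting interval. For the test over the lines, 10 members were called higher, 3 without the line block, and 0 to 10 with a line left out (0 without WT/-, 7 without WT/HAQ). None was called lower, but 3 were by DESeq2, 1 with a mean count of at least 1, and 0 to 9 with a line left out (9 without HAQ/-). For the difference of HAQ/-, 1 member was called and 2 with a mean count of at least 1. Leaving out a line could not be run for that test, since no residual degree of freedom is left. Of the members lower at 1.5-fold, in WT/HAQ 7 became 4 with a mean count of at least 50, 3 at 2-fold and 14 at 1.2-fold. In WT/- 3 became 5 with total counts only, 1 with a mean count of at least 50, 1 at 2-fold and 13 at 1.2-fold. In HAQ/- 1 became 2 after thinning to the smallest total, 2 with a mean count of at least 1, 0 with a mean count of at least 50, 0 at 2-fold and 9 at 1.2-fold, and the 12 higher became 6 at 2-fold. In the untreated clones, 8 higher in WT/- became 4 and 1 lower became 0 at 2-fold and 2 after thinning, and in HAQ/- 2 higher became 1 and 6 lower became 2 at 2-fold. Apart from fewer genes or libraries entering, the cause was not tested. Over all genes, edgeR called 344 higher and 145 lower, 772 and 583 by DESeq2, 58 and 4 without the block, 1282 and 1307 without HAQ/-, 136 and 50 without WT/HAQ and 0 and 0 without WT/-. The line block pairs the 2 libraries of a line, and the labels give no replicate numbers for any other pairing. Depth limits the precision of the less abundant genes. In at least 1 line, 14 members with mean counts from 10.3 to 364 had a counting interval wider than 1.5-fold.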
